A study of Mus musculus with 12 samples.

Results

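Adenylyl cyclases make the second messenger cAMP and cyclic nucleotide phosphodiesterases break down cAMP and cGMP, so that both families together set the level of these messengers in a cell. The genes of both families were taken from the deposited table of brain mRNA by their symbols, Adcy with a number and Pde with a number and a letter from a to d. This gave 32 of 55385 genes, of which 10 encode adenylyl cyclases and 22 are named as phosphodiesterases. Pde6d is counted among the phosphodiesterases by its symbol, although it encodes no catalytic subunit. A mean FPKM (fragments per kilobase, a level corrected for transcript length and library size) of at least 0.1 over the libraries was reached by 28 of them, 9 Adcy and 19 Pde genes, and these were tested. Adcy10, Pde6a, Pde6b and Pde6c were below this limit.

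The mice were wild-type C57BL/6J males bought at 8 weeks of age, and 3 mice of each of 4 groups gave 1 library of poly(A) RNA each. Control mice were given water (C_W) or krill oil (C_O), and mice exposed to chronic unpredictable mild stress (CUMS) for 4 weeks were given water (MS_W) or krill oil (MS_O). Krill oil was given into the stomach at 200 mg/kg each day for 5 weeks, and its control was water and not another oil. A library is named by its group and mouse number, and values are given in the order C_W1, C_W64, C_W70, then C_O15, C_O30, C_O72, then MS_W31, MS_W75, MS_W95, then MS_O13, MS_O46, MS_O78. The libraries held between 50912906 and 75678721 estimated counts.

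The membrane-bound adenylyl cyclases are activated by stimulatory G proteins and differ in their other controls. Some are stimulated by calcium and calmodulin, some are inhibited by calcium, and others are neither, while a soluble cyclase responds to bicarbonate. The phosphodiesterases differ in which messenger they hydrolyse and in how they are switched, for example by calmodulin or by cGMP. In the brain, Adcy1 is known from the cortex, hippocampus and cerebellum, and Adcy5, Pde1b, Pde7b and Pde10a are known from the medium spiny neurons of the striatum, where dopamine and adenosine receptors act through cAMP.

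Before any comparison, 2 libraries stood apart. C_O72 and MS_W95 correlated with each other at r = 0.970 over the tested genes and with no other library above 0.937, whereas every pair among the other 10 libraries correlated at 0.959 or more. Their summed FPKM of 6 cerebellum markers was 237 in C_O72 and 836 in MS_W95, against 3.58 to 16.5 in the other 10, and that of the hindbrain markers was 76.1 and 28.4 against at most 0.0616. The tissue was labelled as whole brain, so the near absence of cerebellum and hindbrain markers from 10 libraries goes against the label. Each comparison is therefore given with 12 libraries, and its counts of members also with the 10 libraries left without C_O72 and MS_W95, which leaves C_O and MS_W with 2 mice each. The part of tissue makeup in the results was not tested.

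Among the calmodulin-stimulated cyclases, Adcy1 was the most abundant cyclase over the 12 libraries, with a mean FPKM of 44.5. Adcy1 (chr11:7063489-7178506, mm10) had FPKM values of 50.0, 62.1 and 77.0 in C_W, 77.3, 37.7 and 26.2 in C_O, 23.5, 19.2 and 74.96 in MS_W, and 44.9, 19.6 and 21.3 in MS_O. The C_W mice were all at 50.0 or above, and outside C_W only C_O15 and MS_W95 reached that level. Adcy3, the cyclase of olfactory cilia, was steady at 7.00 to 10.5 in all 12 libraries, and Adcy8 lay between 2.11 and 5.22.

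The calcium-inhibited cyclases are Adcy5 and Adcy6. Adcy5 (chr16:35154877-35305738), the main cyclase of striatal neurons, had FPKM values of 21.4, 18.2 and 19.0 in C_W, 30.0, 40.5 and 14.9 in C_O, 62.3, 83.4 and 12.9 in MS_W, and 52.5, 36.0 and 34.3 in MS_O. The 3 MS_O mice lay above all C_W mice, but these groups differ in both stress and oil. This pair was not tested, and its share of all genes without overlap was not counted. MS_W held both the highest library, MS_W75, and the lowest, MS_W95. Adcy6 stayed between 4.21 and 6.93.

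Of the cyclases activated by G protein beta-gamma subunits, Adcy2 (chr13:68620043-68999541) was at an FPKM of 42.3, 47.0 and 40.7 in C_W, 42.2, 35.9 and 15.6 in C_O, 31.7, 32.3 and 14.8 in MS_W, and 40.0, 38.2 and 38.9 in MS_O. The C_W and MS_W mice did not overlap, and C_O72 and MS_W95 were the lowest libraries. Adcy4 lay between 0.347 and 0.671 and Adcy7, which is known from immune cells, between 0.625 and 1.80. Adcy9, a cyclase of low sensitivity to forskolin, had FPKM values of 8.37, 10.6 and 9.92 in C_W, 10.9, 8.13 and 4.72 in C_O, 6.16, 5.66 and 5.38 in MS_W, and 8.13, 6.70 and 5.05 in MS_O. All 3 MS_W mice lay below all 3 C_W mice for Adcy9 (chr16:4287529-4420498). The soluble cyclase Adcy10 was near the limit of detection, at 0.00994 to 0.0919 and with at most 68 estimated counts in a library.

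The makeup of the cyclase pool was described by the share of each gene. The FPKM of the 10 cyclases summed to between 79.3 in C_O72 and 180 in the highest library. Adcy1 made up 35.7% to 46.3% of this sum in C_W and Adcy5 made up 11.4% to 15.3%. In MS_W31 and MS_W75 the order was the opposite, with Adcy1 at 16.0% and 11.98% and Adcy5 at 42.5% and 52.0%, whereas MS_W95 had 59.2% Adcy1 and 10.2% Adcy5. The MS_O mice had 16.3% to 27.5% Adcy1 and 28.4% to 32.1% Adcy5. Adcy2, at 24.5% to 30.2% in C_W, was the most abundant cyclase in MS_O46 (31.8%) and MS_O78 (32.3%). The ratio of Adcy5 to Adcy1 was 0.246 to 0.428 in C_W and 1.17 to 1.84 in MS_O, groups that differ in both stress and oil. It was 0.388, 1.07 and 0.567 in C_O, and 2.65, 4.34 and 0.172 in MS_W. In C_O the share of Adcy1 was 26.7% to 42.9% and that of Adcy5 16.6% to 28.7%. These shares are descriptions, and their difference between groups was not tested.

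**Figure D1:**
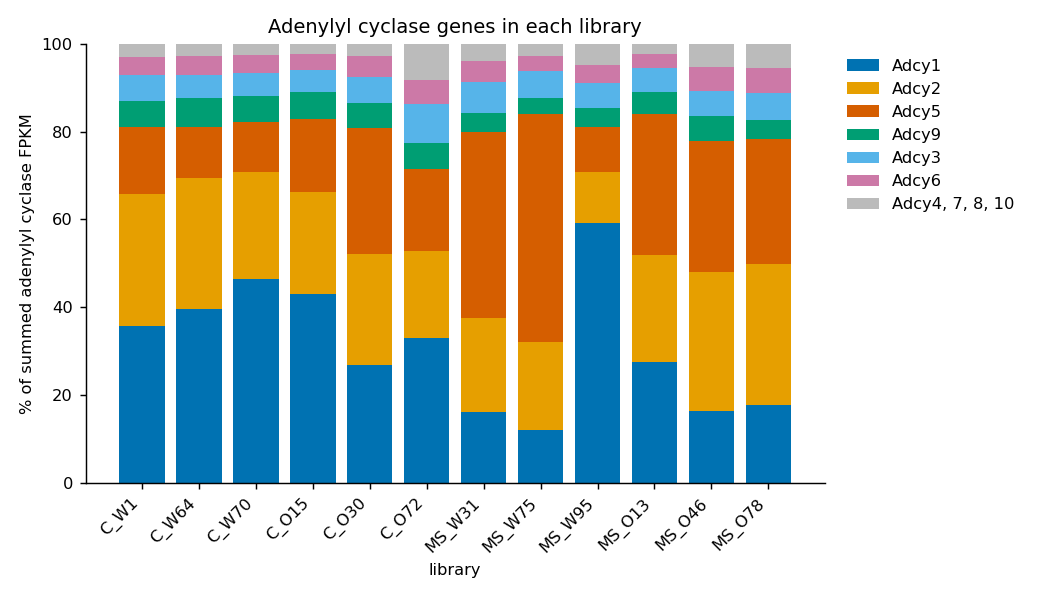
Share of each adenylyl cyclase in the summed cyclase FPKM (percent, y axis) in each of the 12 libraries (x axis, by group), drawn as stacked bars that each reach 100%. Adcy1 is the larger of Adcy1 and Adcy5 in the C_W bars, Adcy5 is the larger in MS_W31 and MS_W75, and MS_W95 has 59.2% Adcy1.

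The phosphodiesterases summed to an FPKM of 98.4 in MS_W95 and 108 in C_O72, and to between 197 and 330 in the other 10 libraries. Pde2a and Pde1b led this family, and one or the other was the most abundant phosphodiesterase in each library. Pde2a (chr7:101421691-101512827), which hydrolyses both messengers and is stimulated by cGMP, had FPKM values of 63.1, 62.2 and 68.1 in C_W, 73.9, 69.2 and 8.37 in C_O, 73.8, 76.3 and 9.97 in MS_W, and 77.8, 53.9 and 58.9 in MS_O. C_O72 and MS_W95 were far below the other 10 libraries, which lay between 53.9 and 77.8 with the groups mixed. Pde2a overlaps exons of a protein-coding gene on the same strand, Gm45837, in the mouse annotation, so that part of its reads may be shared.

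The Pde1 enzymes are activated by calcium and calmodulin. Pde1a was at 23.3, 32.7 and 36.4 in C_W, 28.7, 20.4 and 2.08 in C_O, 16.8, 17.1 and 1.69 in MS_W, and 25.9, 7.97 and 9.80 in MS_O. Pde1b (chr15:103503034-103530052) was at 38.8, 31.9 and 27.5 in C_W, 48.8, 64.3 and 24.8 in C_O, 89.7, 118 and 16.4 in MS_W, and 84.8, 68.4 and 57.4 in MS_O. Pde1b was higher in every MS_O mouse than in any C_W mouse, a pair of groups that differs in both stress and oil and was not tested. The share of all genes without overlap in this pair was not counted. Within MS_W it was highest in MS_W75 and lowest in MS_W95. Pde1c (chr6:56069804-56569103) was much less abundant, at 0.239, 0.347 and 0.291 in C_W, 0.239, 0.284 and 1.16 in C_O, 1.07, 0.846 and 2.60 in MS_W, and 0.468, 0.863 and 1.00 in MS_O. For Pde1c all 6 stressed mice lay above all 3 C_W mice, from which the MS_O mice also differ in oil. C_O72 was the exception among the control mice given oil. Of all tested genes 16.3% were higher in every MS_W mouse than in every C_W mouse, and the share for all 6 stressed mice was not counted.

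Pde10a (chr17:8525372-8986645), an enzyme of striatal medium spiny neurons that hydrolyses both messengers, had FPKM values of 3.99, 1.85 and 1.97 in C_W, 13.9, 13.4 and 2.92 in C_O, 20.3, 29.0 and 1.97 in MS_W, and 7.99, 12.1 and 8.08 in MS_O. Its level split the libraries into 5 at 3.99 or below, which were the C_W mice, C_O72 and MS_W95, and 7 at 7.99 or above. Of the other enzymes that act on both messengers, the cGMP-inhibited Pde3a was at 0.278, 0.156 and 0.209 in C_W, 0.124, 0.278 and 0.528 in C_O, 0.438, 0.437 and 1.09 in MS_W, and 0.195, 0.443 and 0.372 in MS_O. The MS_W mice lay above all C_W mice for Pde3a. Pde3b lay between 0.908 and 2.56 and Pde11a between 0.0927 and 0.443.

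The cAMP-specific enzymes include the rolipram-sensitive Pde4 family. Pde4a (chr9:21165714-21213248) was the most abundant, at 20.3, 21.7 and 18.9 in C_W, 19.1, 15.1 and 12.5 in C_O, 20.6, 16.2 and 10.03 in MS_W, and 17.6, 25.1 and 26.2 in MS_O. Its values overlapped between every pair of groups, and C_O72 and MS_W95 were the lowest libraries. Pde4b was at 11.7, 11.7 and 10.9 in C_W, 10.99, 13.1 and 6.79 in C_O, 11.9, 14.5 and 8.69 in MS_W, and 12.5, 12.98 and 11.9 in MS_O, with the groups mixed, and Pde4d lay between 1.38 and 3.66. Pde4c (chr8:70723720-70751186) was sparse, at 0.344, 0.402 and 0.413 in C_W, 0.504, 0.452 and 0.333 in C_O, 0.333, 0.321 and 0.0882 in MS_W, and 0.442, 0.656 and 0.563 in MS_O. Every MS_O mouse had more Pde4c than every MS_W mouse. Pde7b, a rolipram-insensitive enzyme, was at 2.38, 1.75 and 1.82 in C_W, 4.01, 2.99 and 0.727 in C_O, 3.80, 5.95 and 1.04 in MS_W, and 4.10, 2.89 and 2.47 in MS_O. As for Pde10a, the C_W mice, C_O72 and MS_W95 were the lowest 5 libraries. Pde7a lay between 2.07 and 3.58, Pde8a between 3.29 and 9.91 with C_O72 highest, and Pde8b between 5.00 and 15.3 with MS_W95 lowest.

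Among the cGMP-specific enzymes, Pde9a (chr17:31386210-31476310), which has a high affinity for cGMP, was at 3.10, 3.42 and 3.07 in C_W, 2.70, 3.50 and 4.61 in C_O, 3.89, 5.07 and 10.99 in MS_W, and 3.48, 4.24 and 3.56 in MS_O. The MS_W mice all lay above the C_W mice and MS_W95 was the highest library. Pde5a, the target of sildenafil, was at 5.37 in MS_W95 and between 0.597 and 1.60 in the other libraries. The photoreceptor enzymes Pde6a, Pde6b and Pde6c had mean FPKM values of 0.0392, 0.0281 and 0.0374, were listed at the floor of the table in 2, 1 and 4 libraries, and had at most 35, 19 and 28 estimated counts in a library. Pde6d (chr1:86542994-86582547) encodes a prenyl-binding protein and no catalytic subunit, and was at 8.44, 6.61 and 7.04 in C_W, 14.2, 6.78 and 21.5 in C_O, 8.25, 17.2 and 9.66 in MS_W, and 16.5, 17.2 and 17.8 in MS_O. The MS_O mice were close together and above every C_W mouse, from which they differ in both stress and oil, while C_O and MS_W were spread. MS_O was not tested against C_W, and the share of all genes without overlap between them was not counted.

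Members of both families had a higher median SD between libraries than the tested genes in general, which were not matched to them for abundance. The median SD of log2(FPKM + 1) over the 12 libraries was 0.37 for the 28 members and 0.21 for all tested genes, and 22 of the 28 lay above the latter. Pde1a (1.27), Pde10a (1.19) and Pde2a (1.08) had the highest SD of the members and Adcy4 (0.10) the lowest. A part of this spread went with C_O72 and MS_W95. Both were the lowest libraries for 10 of 28 members (35.7%, against 11.9% of all tested genes), namely Adcy2, Adcy5, Adcy6, Pde1a, Pde1b, Pde2a, Pde4a, Pde4b, Pde7b and Pde8b. Both were the highest libraries for 5 (17.9%, against 16.3%), namely Adcy7, Pde1c, Pde3a, Pde3b and Pde8a.

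**Figure D2:**
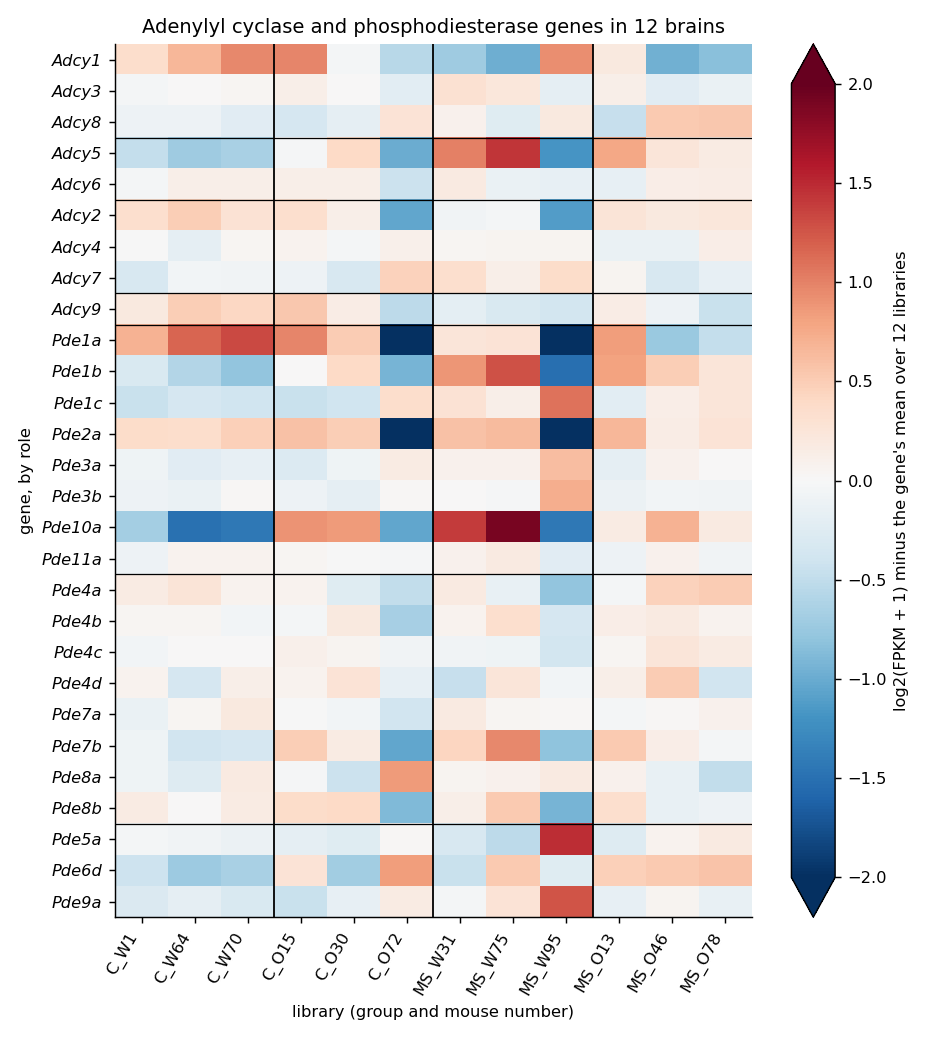
Level of the 28 tested members (rows) in the 12 libraries (columns, by group), as log2(FPKM + 1) minus the mean of the gene over the libraries, with a colour scale that ends at 2 above and below the mean. C_O72 and MS_W95 share low Pde1a and Pde2a, and Pde10a is low in these libraries and in the 3 C_W libraries.

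For CUMS without krill oil, MS_W was compared with C_W by limma on log2(FPKM + 1), with p adjusted over the 21393 tested genes. A log2FC is the difference of the group means on this scale with its standard error (SE). No member passed an adjusted p under 0.05 (background 0.00467% of tested genes), and 5 of 28 had an unadjusted p under 0.05 (background 10.5%), namely Pde1c, Pde9a, Pde3a and Pde10a, which were higher in MS_W, and Adcy9, which was lower. By edgeR on the estimated counts 0 of 32 members passed (background 0.00451%) and 7 had an unadjusted p under 0.05 (background 9.36%). By DESeq2 8 had one (background 11.9%) and 2 passed (background 1.85%), Pde1c at an adjusted p of 0.0146 and Pde10a at 0.0372. Of all members tested by limma 18 had a higher and 10 a lower mean log2 level in MS_W, with a median log2FC of 0.10 against 0.06 for all tested genes. After quantile normalization or centring of the libraries the split was 15 to 13.

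The criteria of the study for differentially expressed genes (DEGs), an unadjusted p under 0.05 and a ratio of mean FPKM above 2 in either direction, were met by 4 members (background 4.59%). All 4 were phosphodiesterases and higher in MS_W (background of higher DEGs 2.5%). Mean FPKM was 6.55-fold higher for Pde10a, at 2.60 ± 1.21 in C_W and 17.1 ± 13.8 in MS_W (SD, n = 3). It was 5.14-fold higher for Pde1c (0.292 ± 0.0537 and 1.503 ± 0.952), 3.05-fold higher for Pde3a (0.215 ± 0.0612 and 0.654 ± 0.375) and 2.08-fold higher for Pde9a (3.20 ± 0.193 and 6.65 ± 3.81). Of all 983 DEGs 54.3% were higher in MS_W, a share that was 43.0% after quantile normalization and 25.7% after centring, and Pde10a and Pde9a met the criteria under neither. In bulk tissue, fewer cells of a type and less RNA per cell cannot be told apart.

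The errors of these differences varied widely. The limma log2FC of Pde1c was 0.89 (SE 0.27, adjusted p = 0.322), that of Pde9a 0.76 (SE 0.28, adjusted p = 0.401) and that of Pde3a 0.42 (SE 0.16, adjusted p = 0.409). For Adcy9 the limma log2FC was -0.65 (SE 0.24, adjusted p = 0.399), with a mean FPKM of 9.62 ± 1.13 in C_W and 5.73 ± 0.395 in MS_W. For Pde10a it was 1.83 (SE 0.78, adjusted p = 0.461), and MS_W95, at 1.97, lay among the C_W mice. Groups did not overlap for 8 of 28 members (background 24.6%). Pde1c, Pde9a, Pde3a and Adcy7 were higher in every MS_W mouse (background 16.3%), and Adcy9, Adcy2, Pde4c and Pde1a were lower (background 8.22%).

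The values of some members moved when C_O72 and MS_W95 were removed. In the 10 libraries 13 of 28 members had an unadjusted p under 0.05 by limma, 9 higher and 4 lower (background 15.4%), and the split was 19 higher to 9 lower. An adjusted p under 0.05 was reached by 3 (background 1.15%), all higher in MS_W: Pde10a with a log2FC of 2.86 (SE 0.28, adjusted p = 0.00317), Adcy5 with 1.83 (SE 0.21, adjusted p = 0.00766) and Pde1b with 1.64 (SE 0.21, adjusted p = 0.0130). With all 12 libraries the limma log2FC of Adcy5 was 1.03 (SE 0.58, adjusted p = 0.545) and that of Pde1b 0.78 (SE 0.61, adjusted p = 0.641). The DEG criteria were met by 7 members in the 10 libraries (background 5.81%), which were these 3 with Pde1c, Pde3a and Pde7b, all higher (background of higher DEGs 3.49%), and Adcy1, which was lower. The limma log2FC of Adcy1 was -0.91 (SE 0.53, adjusted p = 0.558) with 12 libraries and -1.503 (adjusted p = 0.134) with 10. Pde9a was not among these 7, and its log2FC of 0.76 was 0.38 without the 2 libraries. The limma log2FC of Pde1c was 0.60 in the 10 libraries (adjusted p = 0.0830). The ratio of mean FPKM in the 10 libraries was 3.27 for Pde1c, 9.45 for Pde10a and 2.04 for Pde3a, against 5.14, 6.55 and 3.05 in 12.

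The DEG calls of MS_W against C_W also depended on other single libraries. Pde1c met the criteria whichever library was left out. Pde10a lost the call without C_W64, C_W70, MS_W31, MS_W75 or any of the MS_O libraries, Pde9a without C_W1, C_W70 or MS_W95, and Pde3a without C_W64, C_W70 or MS_W95. The count of members was thus 1 without C_W70 and 2 without C_W64. Without MS_W95 it was 6, with Adcy1, Adcy5, Pde1b and Pde7b in place of Pde3a and Pde9a, and without C_O72 Pde1a, lower in MS_W, was added.

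**Figure D3:**
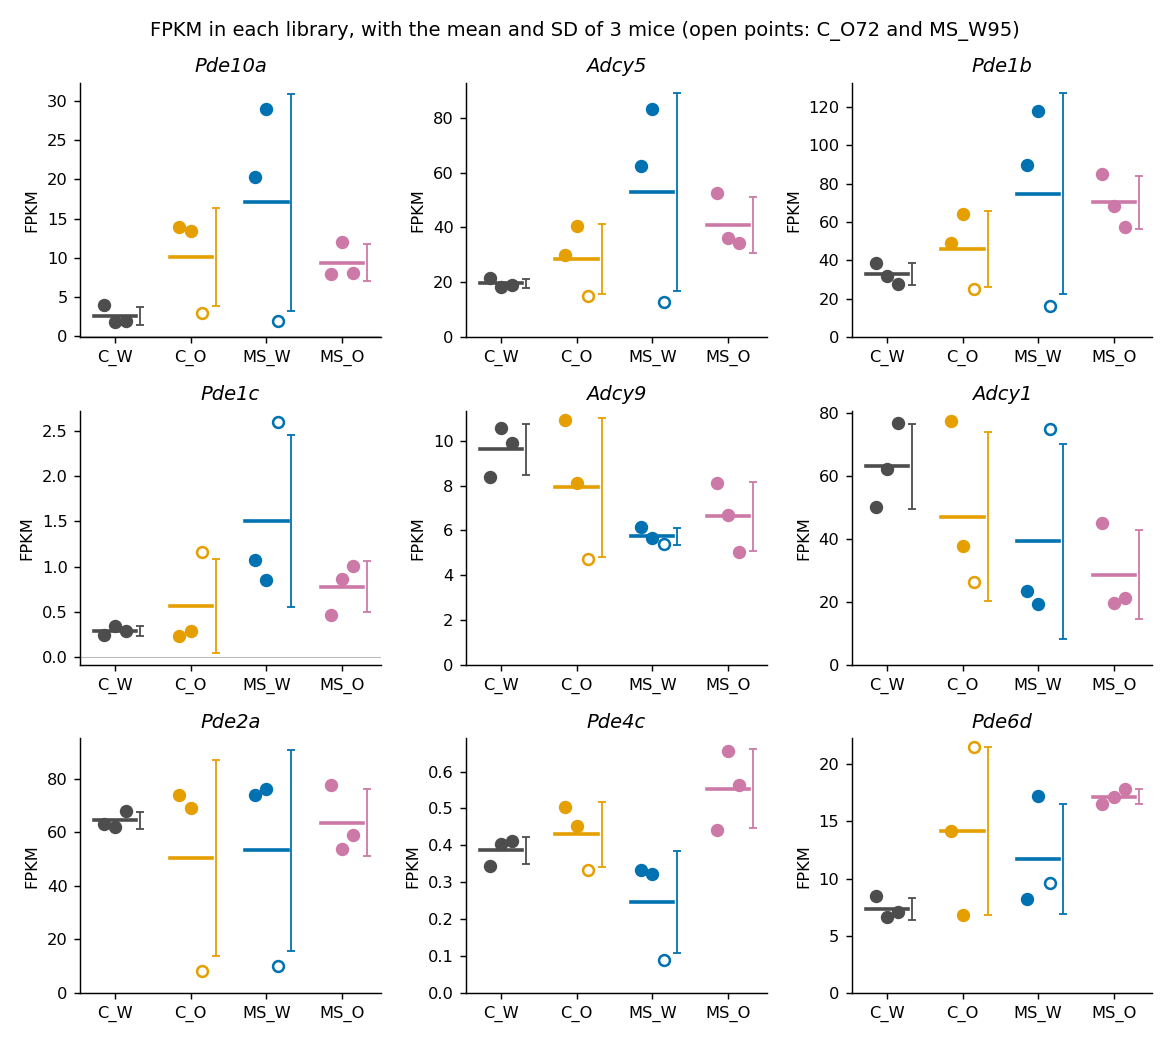
FPKM (y axis) of 9 members in the C_W, C_O, MS_W and MS_O mice (x axis), with a point for each mouse, a bar at the mean and a line for the SD of 3 mice, and open points for C_O72 and MS_W95. The open MS_W point lies at 1.97 for Pde10a and 12.9 for Adcy5, while the other MS_W points are at 20.3 and 29.0 and at 62.3 and 83.4.

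CUMS under krill oil was examined by comparing MS_O with C_O. By limma 0 of 28 members passed the adjusted threshold (background 0.00467%) and 0 had an unadjusted p under 0.05 (background 8.88%). By edgeR 0 of 32 passed and 0 had an unadjusted p under 0.05 (background 0.00451% and 8.12%), and by DESeq2 0 passed and 1 did (background 0.763% and 10.6%). No member met the DEG criteria (background 3.57%, higher 2.82%), and the groups overlapped for all 28 (background of groups without overlap 12.2%, higher 8.9% and lower 3.29%). The smallest limma p belonged to Pde4a, at a mean FPKM of 15.6 ± 3.30 in C_O and 23.0 ± 4.67 in MS_O and a log2FC of 0.53 (SE 0.24, adjusted p = 0.567, 95% interval -0.01 to 1.07). The next was Pde4b, whose limma log2FC was 0.30 (SE 0.21, adjusted p = 0.6998). Without C_O72, the lowest library for Pde4b, the log2FC of Pde4b was 0.05 and that of Pde4a 0.39. Pde4a was highest in MS_O46 and MS_O78, at 25.1 and 26.2, and was at 17.6 in MS_O13. The summed FPKM of 4 olfactory bulb markers was 174 in MS_O46, 177 in MS_O78, 27.5 in MS_O13 and 1.37 to 20.1 in C_O. The part of these markers' tissue in the differences of Pde4a was not tested. Members were higher in MS_O in 20 and lower in 8 cases, 16 and 3 of them phosphodiesterases, and their median log2FC was 0.12 against 0.03 for all tested genes, with 18 to 10 after quantile normalization and 16 to 12 after centring. In the 10 libraries 0 members passed the adjusted threshold by limma with 4 at an unadjusted p under 0.05 (background 0.014% and 13.6%) and a split of 16 to 12, and Adcy1, lower in MS_O, and Pde1c, higher, met the DEG criteria (background 4.28%). With 12 libraries the limma log2FC of Adcy1 was -0.66 (SE 0.53, adjusted p = 0.729) and that of Pde1c 0.22 (SE 0.27, adjusted p = 0.818). This comparison and that of MS_W with C_W share no mice, and a difference between them is tested by the interaction term given further on.

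Krill oil in unstressed mice was examined by comparing C_O with C_W. By limma 0 of 28 members passed (background 0%) and 0 had an unadjusted p under 0.05 (background 3.55%). By edgeR 0 of 32 passed and 2 had an unadjusted p under 0.05 (background 0% and 4.4%), and DESeq2 gave the same counts (background 0.263% and 6.02%). No member met the DEG criteria (background 1.76%, higher 0.865%), and the groups overlapped for all 28 (background of groups without overlap 9.42%, higher 4.08% and lower 5.34%). The members were split 14 to 14 with a median log2FC of 0.02 against 0.00 for all tested genes. The smallest limma p was that of Pde6d, with a mean FPKM of 7.36 ± 0.954 in C_W and 14.2 ± 7.35 in C_O and a log2FC of 0.73 (SE 0.35, adjusted p = 0.908, 95% interval -0.03 to 1.501). Pde10a followed, at 2.60 ± 1.21 and 10.1 ± 6.22, a 3.88-fold ratio and a log2FC of 1.44 (SE 0.78, limma adjusted p = 0.908). In the 10 libraries Pde10a met the DEG criteria (background 1.64%), with a limma log2FC of 2.08 (SE 0.28, adjusted p = 0.2799). C_O15 and C_O30 were both above the 3 C_W mice. Of all members 4 had an unadjusted p under 0.05 in the 10 libraries (background 4.06%), namely Pde10a, Adcy5, Pde1b and Pde7b, all higher in C_O, 0 passed, and the split stayed 14 to 14. The log2FC of Pde6d was 0.38 there, against 0.73 with C_O72, its highest library. Leaving out single libraries, Pde10a met the criteria without C_O72 or MS_W95 and Pde6d without C_O30.

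Krill oil in stressed mice was examined by comparing MS_O with MS_W. By limma 0 of 28 members passed (background 0.00467%) and 2 had an unadjusted p under 0.05 (background 6.09%). By edgeR 0 of 32 passed and 4 had an unadjusted p under 0.05 (background 0.00451% and 5.54%), and by DESeq2 0 passed and 5 did (background 0.363% and 7.53%). Pde4c met the DEG criteria (background 2.81%, higher 1.43%), at 0.248 ± 0.138 in MS_W and 0.554 ± 0.107 in MS_O, a 2.24-fold ratio with a limma log2FC of 0.32 (SE 0.10, adjusted p = 0.716). This call was lost without MS_W95, where Pde10a met the criteria instead, and Pde9a was added without MS_W31 and Adcy7 without MS_O13. Pde4a, at 15.6 ± 5.29 and 23.0 ± 4.67, had a log2FC of 0.57 (SE 0.24, limma adjusted p = 0.815). The members were split 14 to 14, with a median log2FC of -0.01 against -0.02 for all tested genes. With 10 libraries the split was 10 higher to 18 lower with a median of -0.10, and 8 of 28 had an unadjusted p under 0.05, 3 higher and 5 lower (background 8.54%), with 0 past the adjusted threshold (background 0.271%). Groups did not overlap for 4 of 28 (background 12.3%), Adcy2 and Pde4c higher (background 4.64%) and Pde3b and Adcy7 lower (background 7.66%) in MS_O. The direction of Pde10a depended on single MS_W libraries. Its limma log2FC was -0.27 (SE 0.78, adjusted p = 0.954) with all libraries and -1.30 (adjusted p = 0.162) with 10, since MS_W31 and MS_W75 were above the 3 MS_O mice and MS_W95 was below them, and it was above 0 without MS_W31 or MS_W75 (0.12 and 0.36).

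**Figure D4:**
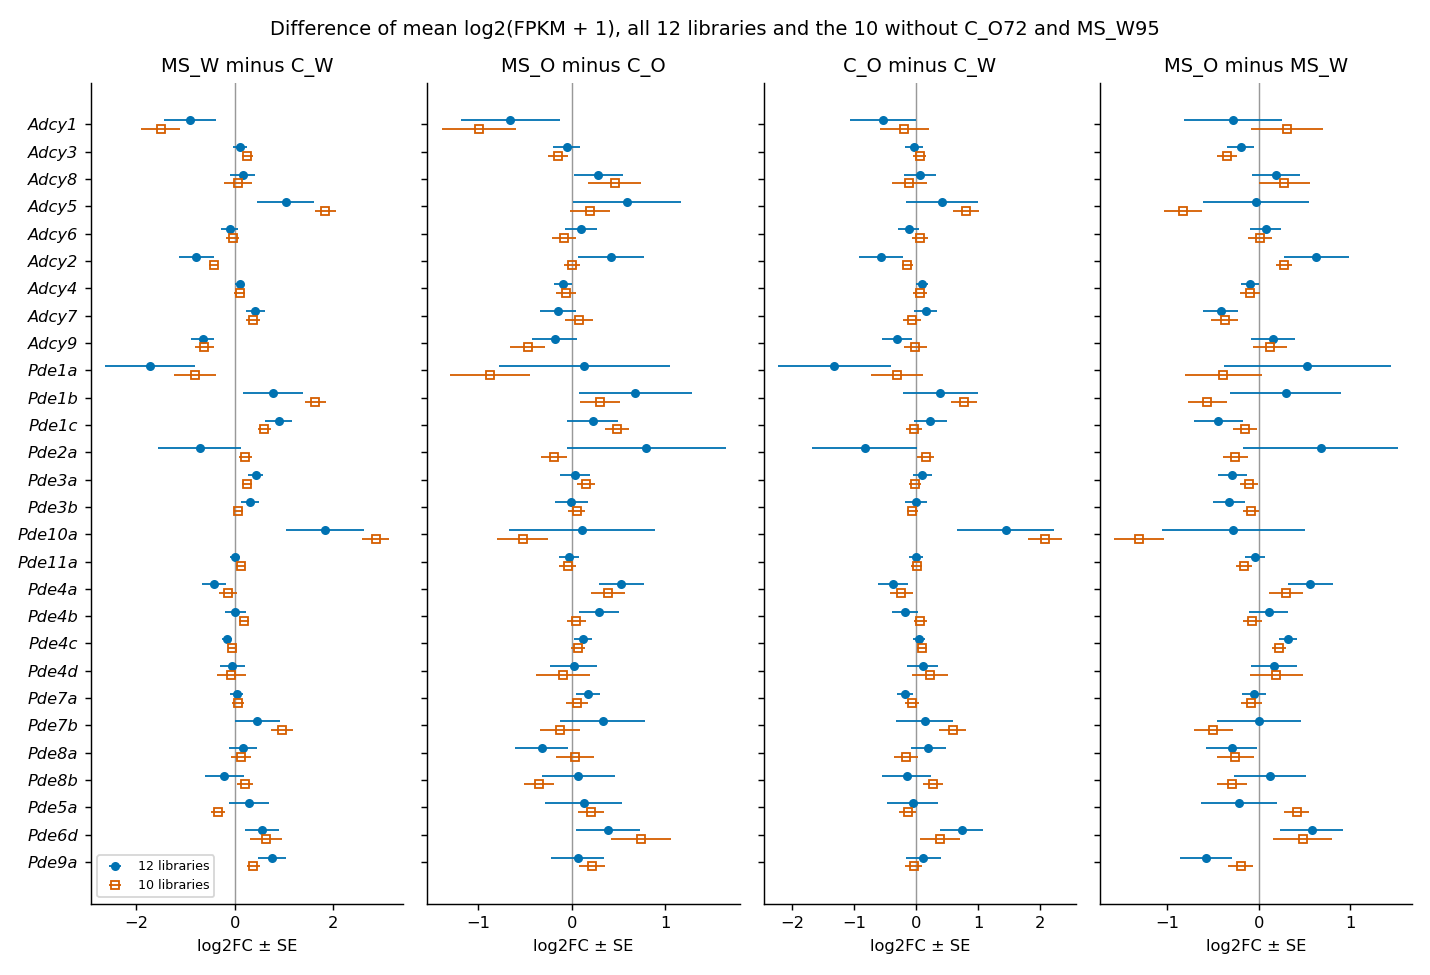
Difference between group means of log2(FPKM + 1), with its SE, for members in the 4 pairwise comparisons (panels), with 12 libraries and with the 10 left without C_O72 and MS_W95. In MS_W against C_W the values of Pde10a, Adcy5 and Pde1b move from 1.83, 1.03 and 0.78 to 2.86, 1.83 and 1.64.

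The same limma fit gave the mean change over both diets and both stress states. For CUMS over both diets 0 of 28 members passed the adjusted threshold (background 0.00935%) and 2 had an unadjusted p under 0.05 (background 12.5%). By edgeR 0 of 32 passed with 4 under the unadjusted threshold (background 0.00451% and 10.3%), and by DESeq2 0 passed with 9 (background 1.44% and 13%). Pde1c had a limma log2FC of 0.56 (SE 0.19, adjusted p = 0.335) and Adcy9 one of -0.42 (SE 0.17, adjusted p = 0.367). In the 10 libraries 12 had an unadjusted p under 0.05 (background 22.2%) and 4 members passed (background 0.762%), with limma adjusted p values of 0.0328 for Adcy5, 0.0370 for Pde1b, 0.0445 for Pde10a and 0.0474 for Pde1c, all higher under CUMS. With 12 libraries the limma adjusted p was 0.443 for Adcy5, 0.513 for Pde1b and 0.497 for Pde10a.

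For krill oil over both stress states 0 of 28 members passed by limma (background 0.00467%) and 2, Pde6d and Pde4c, had an unadjusted p under 0.05 (background 3.22%). By edgeR 0 of 32 passed with 1 under the unadjusted threshold (background 0.00451% and 2.74%), and by DESeq2 0 passed with 3 (background 0.0454% and 3.83%). Both limma differences were higher with oil, with a log2FC of 0.66 (SE 0.24, adjusted p = 1.000) for Pde6d and 0.18 (SE 0.07, adjusted p = 1.000) for Pde4c. With 10 libraries 0 passed (background 0.0561%) and 1, Pde4c, had an unadjusted p under 0.05 (background 4.96%), and the log2FC was 0.43 for Pde6d and 0.16 for Pde4c.

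The interaction, the change under CUMS with krill oil minus that with water, passed the adjusted threshold for 0 of 28 members by limma (background 0%). An unadjusted p under 0.05 was found for 2 (background 7.23%), Pde4a at 0.94 (SE 0.34, limma adjusted p = 0.665) and Adcy2 at 1.20 (SE 0.50, limma adjusted p = 0.665). Both depended on the libraries that stood apart. Leaving out MS_W95 alone gave 0.68 for Pde4a, and leaving out C_O72 alone gave 0.78 for Adcy2. Their lowest values under the alternatives were 0.54 and 0.43. By edgeR 0 of 32 passed with 2 under the unadjusted threshold (background 0% and 7.87%), and by DESeq2 0 passed with 4 (background 0.722% and 10.3%). The limma interaction of Pde10a was -1.72 (SE 1.11, adjusted p = 0.665) with 12 libraries and -3.38 (SE 0.39, adjusted p = 0.0230) with 10, where it was the single member that passed (background 0.145%) and 8 had an unadjusted p under 0.05, 2 higher and 6 lower (background 7.51%). Its mean FPKM in the 12 libraries was 2.60 and 17.1 without oil and 10.1 and 9.38 with oil, in control and stressed mice.

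Pde10a, Adcy5, Pde1b and Pde7b had the same 7 highest libraries, which were C_O15, C_O30, MS_W31, MS_W75 and the 3 MS_O mice. The lowest of these 7 and the highest of the other 5 were at an FPKM of 7.99 and 3.99 for Pde10a, 30.0 and 21.4 for Adcy5, 48.8 and 38.8 for Pde1b, and 2.47 and 2.38 for Pde7b. Of all tested genes 133 (0.622%) had this set of 7. The score of 10 striatum markers, the mean of their log2(FPKM + 1), had it too. This score was 2.24 to 3.26 in C_W, 2.21 to 4.57 in C_O, 2.40 to 5.75 in MS_W and 4.14 to 5.07 in MS_O, and the summed FPKM of the markers was 95.7 to 187, 142 to 456, 163 to 1027 and 386 to 614.

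Markers of the regions thus moved with the comparisons. All 10 striatum markers had a higher mean in MS_W than in C_W, 3 of them without overlap, with a score difference of 1.78 in 12 and 2.81 in 10 libraries, and none of them was at the floor in every library. In C_O against C_W all 10 were higher, with a score difference of 0.92 in 12 and 1.60 in 10 libraries, and in MS_O against C_O all 10 were higher, with a score difference of 0.94 in 12 and 0.26 in 10 libraries. In MS_O against MS_W 0 of 10 had a higher mean FPKM, while the score difference was 0.08 in 12 and -0.95 in 10 libraries. Of 6 cortex markers 0 had a higher mean in MS_W than in C_W and 4 were lower without overlap, with a summed FPKM of 338 to 448 in C_W and 93.2 to 180 in MS_W. The 8 hypothalamus markers were also all higher in MS_W than in C_W. So were all markers of the cerebellum, hindbrain, thalamus, choroid plexus, oligodendrocytes and endothelium. In the 10 libraries the score difference was 2.18 for the hypothalamus and between -0.62 and 0.27 for these other lists. The part of these markers' tissue in the differences of Pde10a, Adcy5, Pde1b and Adcy1 was not tested.

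**Figure D5:**
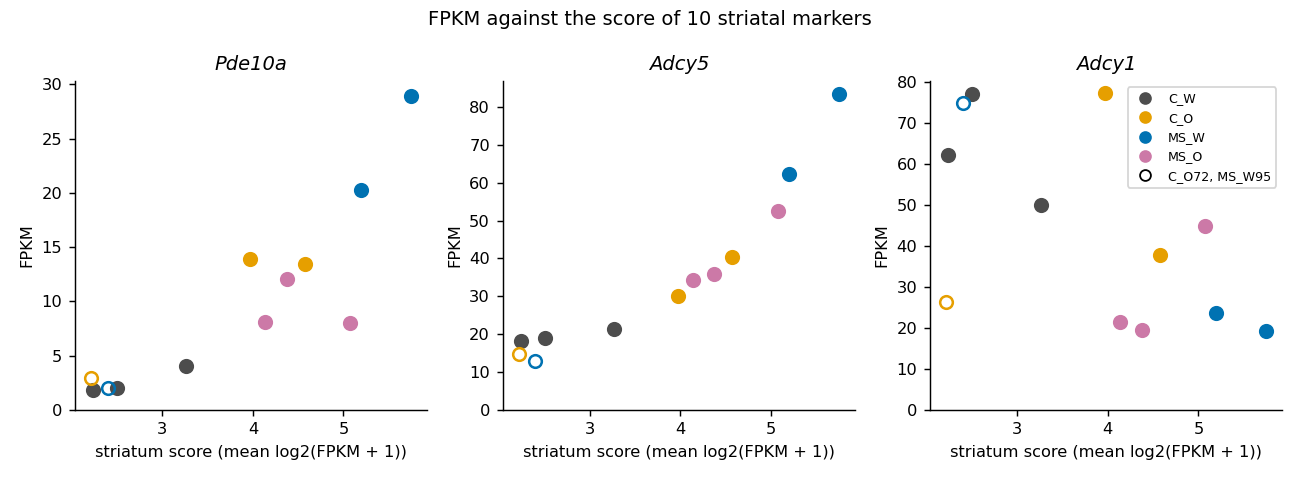
FPKM of Pde10a, Adcy5 and Adcy1 (y axes) against the score of 10 striatum markers (x axis, mean log2(FPKM + 1)) in the 12 libraries, with a point for each library, colours for the groups and open points for C_O72 and MS_W95. The 7 libraries with the highest score are those with the highest Pde10a (7.99 or above) and Adcy5 (30.0 or above).

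The genes most like Pde10a and Adcy5 over the 12 libraries were named by Pearson's r of log2(FPKM + 1) and are a description, since the 12 points also differ in the region markers given above. For Pde10a they were B3gnt2 (r = 0.941), Sh3rf2 (0.940), the adenosine receptor gene Adora2a (0.934), the G protein regulator Rgs9 (0.928) and the G protein subunit gene Gng7 (0.925). In the 10 libraries these r were between 0.923 and 0.943. For Adcy5 they were Sh3rf2 (r = 0.981), Pde1b (0.981), the retinoid receptor gene Rxrg (0.979), and the orphan receptor genes Gpr6 (0.977) and Gpr52 (0.977). Adora2a, Rgs9 and Gpr6 are also on the list of striatum markers.

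The sequence before the transcription start was compared for the 4 genes with this shared set of libraries and for Adcy9, which had the lowest unadjusted p of the cyclases in MS_W against C_W. The 250 bases before each RefSeq start (GRCm38.p6) were searched on both strands for the cAMP response element TGACGTCA, for its shorter core TGACG, which lies within the full element, for the GC box GGGCGG and for the TATA box TATAAA. A window was found for 24 of 32 members, with 48 windows in all. Capitals mark a GC box (GGGCGG, or CCGCCC on the other strand) or a core element (TGACG, or CGTCA).
Pde10a, chr17:8801495-8801744, plus strand: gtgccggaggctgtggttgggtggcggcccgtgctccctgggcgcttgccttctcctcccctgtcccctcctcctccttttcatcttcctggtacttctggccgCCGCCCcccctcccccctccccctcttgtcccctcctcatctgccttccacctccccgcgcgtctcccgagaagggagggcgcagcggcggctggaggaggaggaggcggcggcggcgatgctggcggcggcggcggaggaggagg
Pde10a, chr17:8849735-8849984, plus strand: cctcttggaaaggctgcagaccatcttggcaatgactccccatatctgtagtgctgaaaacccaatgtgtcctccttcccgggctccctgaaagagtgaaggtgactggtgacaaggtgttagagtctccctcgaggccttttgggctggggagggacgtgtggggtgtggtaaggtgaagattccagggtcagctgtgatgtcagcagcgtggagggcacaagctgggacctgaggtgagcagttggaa
Adcy5, chr16:35154614-35154863, plus strand: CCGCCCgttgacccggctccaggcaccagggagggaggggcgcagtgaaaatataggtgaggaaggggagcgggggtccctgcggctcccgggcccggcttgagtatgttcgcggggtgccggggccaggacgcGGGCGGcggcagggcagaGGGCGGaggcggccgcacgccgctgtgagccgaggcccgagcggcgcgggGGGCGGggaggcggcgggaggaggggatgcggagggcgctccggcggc
Pde1b, chr15:103502784-103503033, plus strand: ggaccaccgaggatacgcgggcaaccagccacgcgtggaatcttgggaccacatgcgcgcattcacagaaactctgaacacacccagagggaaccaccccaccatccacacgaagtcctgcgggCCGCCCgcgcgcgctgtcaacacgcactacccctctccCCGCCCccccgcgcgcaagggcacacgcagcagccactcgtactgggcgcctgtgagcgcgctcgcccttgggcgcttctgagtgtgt
Pde7b, chr10:20548329-20548578, minus strand: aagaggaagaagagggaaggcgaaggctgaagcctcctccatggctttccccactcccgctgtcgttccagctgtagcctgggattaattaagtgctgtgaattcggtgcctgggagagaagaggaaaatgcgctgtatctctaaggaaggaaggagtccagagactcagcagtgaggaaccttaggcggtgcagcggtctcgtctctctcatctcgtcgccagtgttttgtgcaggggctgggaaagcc
Adcy9, chr16:4420499-4420748, minus strand: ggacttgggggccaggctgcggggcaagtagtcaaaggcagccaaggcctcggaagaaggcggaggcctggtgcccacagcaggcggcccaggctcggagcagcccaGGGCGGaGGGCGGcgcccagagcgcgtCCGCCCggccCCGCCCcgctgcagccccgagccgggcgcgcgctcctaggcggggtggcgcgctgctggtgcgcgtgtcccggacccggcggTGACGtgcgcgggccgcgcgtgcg

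The windows of the 4 genes did not share a motif. Adcy5 had 4 GC boxes and a GC content of 78%, the most upstream of 3 Pde1b windows, the one shown, had 2 and 67.2%, the first Pde10a window had 1 and 72.8%, and the second Pde10a window (56%) and the Pde7b window (55.2%) had none. Adcy9 had 4 GC boxes, a GC content of 78.8% and a core element whose first base lies 24 bases before the start. The 2 Pde1b windows not shown had 0 GC boxes and a GC content of 44.8% and 50%. The Pde10a and Pde7b starts lie within the spans that the deposited table gives for these genes. Over all members the GC box was in 16 of 48 windows (33.3%) and in 32.7% of 32851 windows of all genes. The core element was in 6 of 48 (12.5%, against 17.8%), in Adcy7, Adcy9, Pde1a, Pde4a, Pde4b and Pde8a, the full element was in 0 of 48 (against 1.55%), and the TATA box was in 2 of 48 (4.17%, against 12.4%). The median GC content was 55.2% for the members and 52.4% for all windows. A match is a description of letters in these windows and not of a bound site.

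Other genes of cAMP and cGMP signalling were described from a list of 60 (G protein alpha subunits, cyclic nucleotide-dependent kinases and their inhibitors, anchoring proteins, Epac exchange factors, cyclic nucleotide-gated channels, guanylyl cyclases, CREB family regulators, calmodulins and the small subunits of the photoreceptor phosphodiesterase), of which 53 were tested. By limma 0 of 53 passed the adjusted threshold in any of the 7 comparisons with 12 libraries (background 0% to 0.00935%). In MS_W against C_W 4 were higher and 4 lower at an unadjusted p under 0.05 (background 10.5%), with a median log2FC of 0.03 against 0.06 for all tested genes. The DEG criteria were met there by Gnal and Rapgef4 (background 4.59%). With 10 libraries 10 were higher and 4 lower (background 15.4%), 1 of them past the adjusted threshold (background 1.15%). The DEG criteria were met there by Gnal and by Akap5, an anchoring protein of protein kinase A at a 2.76-fold ratio (background 5.81%). Gnal, the stimulatory G protein subunit that couples striatal dopamine and adenosine receptors to Adcy5, was at an FPKM of 13.6, 13.9 and 13.7 in C_W, 18.6, 24.9 and 15.5 in C_O, 32.5, 42.7 and 16.0 in MS_W, and 26.2, 18.1 and 19.7 in MS_O. All MS_W mice lay above all C_W mice (background 16.3%), a 2.21-fold ratio of means, with MS_W95 nearest to C_W. Its limma log2FC was 0.99 (SE 0.30, adjusted p = 0.326) in 12 and 1.38 (SE 0.18, adjusted p = 0.0135) in 10 libraries. Rapgef4, which encodes the cAMP sensor Epac2, was at 54.8, 58.0 and 66.9 in C_W and 34.8, 35.3 and 18.0 in MS_W, a ratio of 0.490 in 12 and 0.585 in 10 libraries, where it no longer met the criteria.

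In MS_O against C_O 5 genes of this list were higher and 0 lower at an unadjusted p under 0.05 by limma (background 8.88%), with a median log2FC of 0.09 against 0.03, and Npr1 and Hcn3 met the DEG criteria (background 3.57%). Npr1, the receptor guanylyl cyclase for atrial natriuretic peptide, had a 3.95-fold ratio of means, at 0.442, 1.12 and 1.70 in C_O and 1.41, 6.09 and 5.35 in MS_O, and the pacemaker channel gene Hcn3 a 2.02-fold ratio, at 2.87, 4.18 and 3.14 and 3.54, 8.01 and 9.03. Hcn3, with a ratio of 1.95 in 10 libraries, no longer met the criteria there, where Npr1 and the pacemaker channel gene Hcn4 did (background 4.28%). Npr1 and Hcn3 both overlapped between the groups, since MS_O13 was low for both. The 4 olfactory bulb markers moved with the same libraries: all were higher in MS_O than in C_O without overlap, with a score difference of 3.04, and their summed FPKM was 27.5 in MS_O13, 174 in MS_O46 and 177 in MS_O78 against 1.37 to 20.1 in C_O. Their part in these differences was not tested. In C_O against C_W 0 were higher and 2 lower (background 3.55%), and in MS_O against MS_W 0 were higher and 1 lower (background 6.09%), or 1 higher and 6 lower in the 10 libraries (background 8.54%). For CUMS over both diets 12 were higher and 3 lower (background 12.5% in both directions), for krill oil over both stress states 0 were higher or lower (background 3.22%), and for the interaction 2 were higher and 4 lower (background 7.23%).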

How the data were processed

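RNA of 12 mouse brains, 3 mice in each of 4 groups, was sequenced as poly(A) RNA with strand-marking (dUTP) libraries, and each library was 1 mouse. The deposited FPKM were produced by the authors, who trimmed reads with cutadapt 1.9, aligned them to mm10 with HISAT2 2.0.4 and estimated expression with StringTie 1.3.4d and Ballgown (versions from the submitters' processing notes), and a gene without an estimate is listed at 1e-04. The deposited estimated counts were also made by the authors from coverage and are not scaled between libraries. The annotation and the strand used in counting are not given in the sources used here. Exons of 9 of the 32 members overlap another gene in GENCODE release 21 of mouse, 8 on the opposite strand and 1 on the same strand. Of these partners 2 are protein-coding, Cenpo for Adcy3 and Gm45837 for Pde2a. Reads of pairs on opposite strands cannot be told apart without strand. Pde2a and Gm45837 lie on the same strand, so strand does not separate their reads. Gene names were not unique for 118 symbols, and genes were tracked by identifier.

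The members and gene lists were chosen with earlier results of these data known. Tables were made in Python 3.11.15 (pandas 2.3.3) and figures with matplotlib 3.10.9. In R 4.3.3, limma 3.58.1 (lmFit, eBayes with trend) was fitted to log2(FPKM + 1) of the 4 groups together for the 21393 genes that averaged an FPKM of 0.1 or more over the libraries, with Benjamini-Hochberg adjustment over these genes. The DEG criteria of the study, made for Ballgown, were applied to limma's p. Estimated counts were rounded for edgeR 4.0.16 (quasi-likelihood) and DESeq2 1.42.0. Scripts were tested on simulated data. With 3 mice against 3, an exact permutation test cannot go below p = 0.1, so none was used.

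Library by library values were given for Pde10a and Adcy5, the most abundant member of each role, members past a call rule and the 2 with the smallest p in each comparison. Pde1a, Pde7b and other members given in full beyond this rule were added after they were seen. Alternatives were a pseudocount of 0.1, no filter on low values, a filter at an FPKM of 1, quantile normalization, centring, only the groups compared, the fold taken from the limma difference, edgeR, DESeq2, the 10 libraries without C_O72 and MS_W95, and leaving out each library in turn. The estimated counts of a library summed to 50912906 to 75678721, and no libraries were identical. In each group these sums were above the raw reads that the paper lists, so they are not numbers of reads. Promoter windows came from RefSeq (GRCm38.p6).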

Additional observations from a re-analysis of the deposited data

How the results depend on the processing

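The 28 differences of single members given with an error were recomputed under the alternatives, which gave 572 values. Of these 560 kept direction and side of the adjusted threshold, 10 passed it newly, 0 lost it and 2 reversed. No member passed the threshold by limma with 12 libraries, so none could lose it. The reversed values were those of Pde10a in MS_O against MS_W, at 0.12 without MS_W31 and 0.36 without MS_W75, while it was -1.30 without MS_W95. The count of members past an adjusted p under 0.05 in MS_W against C_W, 0 by limma, was 2 by DESeq2 (Pde10a and Pde1c) and 3 in the 10 libraries. In these 10 libraries it was 4 for CUMS over both diets and 1 for the interaction. The count past the DEG criteria in MS_W against C_W, 4, was 2 with a mean FPKM of at least 1 (Pde10a and Pde9a), 2 after quantile normalization and 2 with only the groups compared (Pde1c and Pde3a in both), 1 with the fold taken from the limma difference (Pde10a), 7 in the 10 libraries, and between 1 and 6 leaving out single libraries. For MS_O against C_O, 0, it was 1 by DESeq2 (Adcy10), 2 in the 10 libraries and 0 to 0 leaving out single libraries. For C_O against C_W, 0, it was 1 (Pde10a) with only the groups compared, by edgeR, by DESeq2 and in the 10 libraries, and 0 to 1 leaving out single libraries. For MS_O against MS_W, 1, it was 0 with a mean FPKM of at least 1 or the fold taken from the limma difference, 2 by edgeR and by DESeq2 (Pde4c and Pde6b), and 1 to 2 leaving out single libraries. The other count values, 206 of 232, stayed within 1.5 times the value given. The cause of these changes was not tested, except that fewer genes or libraries enter a stricter filter or a subset. Adcy10 and Pde6b are called from few counts. No paired analysis was possible because the groups share no mouse number. Depth limits statements on members with few estimated counts in every library, such as Pde4c with at most 236.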
